A study of Mus musculus with 2 samples.

Results

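The genes described here are the nuclear-encoded subunits of the mitochondrial respiratory chain and ATP synthase. They were taken by symbol alone, as every listed gene starting with Ndufa, Ndufb, Ndufc, Ndufs, Ndufv, Sdh, Uqcr, Cox4 to Cox8 or Atp5, without pseudogenes, assembly factors and antisense transcripts. This gave 85 of 32285 genes, all annotated as protein coding: 38 named for complex I, 4 for complex II, 8 for complex III, 18 for complex IV and 17 for complex V. A UMI (unique molecular identifier, a tag that counts 1 captured RNA molecule once) was found for 84 of them, and 83 had at least 50 UMIs. Cox8c, a testis form of a complex IV subunit, had none, and Cox7b2 had 2 UMIs.

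The respiratory chain sits in the inner mitochondrial membrane. Complexes I and II take electrons from NADH and succinate, complex III passes them to cytochrome c, complex IV hands them to oxygen, and complexes I, III and IV pump protons. Complex V, the ATP synthase, lets the protons flow back and makes ATP. A small set of subunits is made from mitochondrial DNA and all others are made from nuclear genes. Microglia and monocytes carry out oxidative phosphorylation, whereas mature neutrophils have few mitochondria and rely mainly on glycolysis.

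The cells were isolated from the central nervous system of mice after transplantation of haematopoietic stem and progenitor cells (HSPCs), and the design sets 2 Cx3cr1 genotypes side by side. There was 1 library labelled Cx3cr1-/+ (heterozygous) and 1 labelled Cx3cr1+/+ (wild type). Both carried the same protocol text, in which GFP+ and GFP- cells of the Lin- pool of Cx3cr1-/+ mice were given by vein to CD45.1 recipients after 4 doses of 25 mg/kg busulfan, which depletes stem cells of the host marrow. No strain beyond that, sex, age, interval after transplantation or number of pooled animals stood in the labels, nor which donors gave the wild-type library, and the host's own cells were not removed by any stated step. With 1 library per genotype no test across animals exists, so every interval below is at 95% and covers counting error only, and each difference compares these libraries.

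In the heterozygous library 17828344 UMIs were spread over 1837 barcodes, and in the wild-type library 22062823 over 2359; 1489 and 1949 barcodes passed the cell filters, with medians of 6880.0 and 6637 UMIs. The same 339 barcode sequences were listed in both libraries, which touched 255 and 198 kept cells. Of 20 clusters, 18 took a class name from marker lists and 2 did not. The microglia-like label of the samples held for a part of the cells: 203 and 309 were microglia-like, 307 and 616 monocyte-like, 312 and 460 neutrophil-like and 160 and 215 dendritic cell-like. In the microglia-like class all 14 microglial markers had UMIs in both libraries and summed to 37356 and 38896 CPM (counts scaled to the class's total, on which 10000 CPM are 1% of its UMIs), and Cx3cr1 stood at 2187 and 2171 CPM. Since no label tells where in Cx3cr1 the allele is altered, a 3′ count does not check the genotype. The libraries also differed in sex-linked RNA: Xist, made from the silent X chromosome, stood at 880.0 and 641 CPM in microglia-like cells and at 509 and 23.4 CPM in monocyte-like cells. Y-linked Ddx3y stood at 0 and 18.1 CPM in microglia-like, 1.39 and 99.1 CPM in monocyte-like and 0.943 and 62.5 CPM in neutrophil-like cells. Genotype thus cannot be separated from the sex or donors of the cells here, and their part in any difference between the libraries was not tested.

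Promoter sequences of 5 members are shown as examples of subunits found in nearly every class and of a form found in few. Their motifs do not stand for all members of either kind, as the counts below show. Cox8a and Cox6a1 encode the widely used forms of complex IV subunits, Cox8b encodes a form of heart, muscle and brown fat, Atp5g2 encodes the proton-carrying c subunit of ATP synthase, and Ndufs3 encodes a core subunit of complex I. Each stretch runs from 250 bases before to 30 bases after the start of the gene, 5′ to 3′ on the gene's strand, from RefSeq on GRCm38.p6. Capitals mark matches to the letters CCGGAAG (bound by ETS factors such as GABP), to the NRF1 motif (the capitals in the Atp5g2 line) or to TATAAA, on either strand. NRF1 and GABP are known activators of respiratory chain genes.
Cox8b, chr7:140900417-140900696, minus strand: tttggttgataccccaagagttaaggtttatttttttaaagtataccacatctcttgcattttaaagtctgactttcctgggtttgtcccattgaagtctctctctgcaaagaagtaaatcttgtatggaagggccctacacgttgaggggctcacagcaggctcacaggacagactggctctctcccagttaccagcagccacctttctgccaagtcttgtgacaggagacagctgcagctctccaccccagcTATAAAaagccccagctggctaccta
Cox8a, chr19:7217587-7217866, minus strand: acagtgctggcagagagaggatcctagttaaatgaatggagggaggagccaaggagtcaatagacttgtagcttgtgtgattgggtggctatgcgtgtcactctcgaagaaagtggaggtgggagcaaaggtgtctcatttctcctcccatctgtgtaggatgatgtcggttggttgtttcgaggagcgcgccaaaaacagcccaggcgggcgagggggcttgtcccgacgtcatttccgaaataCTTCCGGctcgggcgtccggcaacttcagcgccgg
Cox6a1, chr5:115348929-115349208, minus strand: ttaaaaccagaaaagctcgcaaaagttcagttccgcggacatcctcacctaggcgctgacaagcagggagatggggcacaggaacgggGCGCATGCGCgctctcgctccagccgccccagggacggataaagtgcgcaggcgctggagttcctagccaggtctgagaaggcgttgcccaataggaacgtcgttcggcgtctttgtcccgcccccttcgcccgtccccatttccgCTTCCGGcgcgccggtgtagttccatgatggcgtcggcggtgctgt
Atp5g2, chr15:102671018-102671297, minus strand: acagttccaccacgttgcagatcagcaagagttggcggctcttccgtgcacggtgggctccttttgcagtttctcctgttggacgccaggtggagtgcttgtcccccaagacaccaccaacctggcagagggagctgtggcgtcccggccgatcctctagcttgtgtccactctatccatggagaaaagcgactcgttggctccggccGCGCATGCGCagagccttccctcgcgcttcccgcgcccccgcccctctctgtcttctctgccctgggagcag
Ndufs3, chr2:90904692-90904971, minus strand: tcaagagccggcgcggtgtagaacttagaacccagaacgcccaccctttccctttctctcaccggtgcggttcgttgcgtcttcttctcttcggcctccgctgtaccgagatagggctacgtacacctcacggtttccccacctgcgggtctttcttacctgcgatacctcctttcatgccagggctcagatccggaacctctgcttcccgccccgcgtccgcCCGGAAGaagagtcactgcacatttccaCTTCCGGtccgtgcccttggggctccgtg

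In the Cox8b promoter the letters TATAAA began at base 5 after the annotated start, and neither of the other motifs was present. The Cox8a promoter held the ETS letters on the opposite strand, 5 bases before the start. The Cox6a1 promoter held the NRF1 letters 162 bases and the ETS letters, on the opposite strand, 16 bases before the start. The Atp5g2 promoter held the NRF1 letters 42 bases before the start, and that of Ndufs3 the ETS letters on its own strand 27 bases before and on the opposite strand from base 2 after it. Over windows of 300 bases (250 before and 50 after the start), 69 of the 85 members had an entry. The ETS letters, on either strand, were in 17 of them (24.6%), against 9.93% of 27025 genes. The NRF1 letters, which are their own reverse complement, were in 5 (7.25%), against 1.07% of genes, and these were Atp5g2, Atp5k, Cox6a1, Ndufa11 and Uqcrc1. AAGATGG, bound by YY1, was in 11 (15.9%), against 7.28%, and TCAAGGTCA, bound by oestrogen-related receptors, in 2 (2.90%), against 0.466%. TATAAA went the other way, with 8 members (11.6%) against 15.7% of genes. These were Atp5l, Atp5md, Cox7b2, Cox8b, Ndufa3, Ndufa7, Ndufb7 and Ndufs7, so the letters were not limited to forms found in few classes. A match is a description of the sequence and not a bound site.

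Over all kept cells the members took 19370.1 CPM (19304 to 19436) of the heterozygous and 19812 CPM (19752.5 to 19872) of the wild-type UMIs. Complexes I and V gave the largest shares of the 752904 member UMIs, 29.8% and 31.3%, followed by complex IV with 27.1%, complex III with 10.1% and complex II with 1.65%. Classes differed far more than libraries. The stefin-bearing neutrophil-like cluster (led by Cstdc4, Stfa1 and Stfa2l1) had the lowest level, 7957 (heterozygous) and 9356 CPM (wild type), and the ependymal or choroid plexus-like cluster (led by the thyroxine carrier gene Ttr) the highest, 44914 and 57342 CPM. Among the 15 clusters with at least 25 cells in each library, ranks 7 to 15 of the summed level were held by the same clusters in both libraries. From the top of these downwards they were shallow microglia-like cells (23726 and 23002 CPM), dendritic cell-like cells (22606 and 22812), patrolling monocyte-like cells led by Cd300e (20788 and 20541), Hmox1-bearing monocyte-like cells (19944 and 19473), an unnamed cluster led by Gpnmb, Spp1 and Apoe (16617 and 17416), Camp-bearing neutrophil-like cells (15149 and 16222), deep microglia-like cells (13180.0 and 13253), Olfm4-bearing neutrophil-like cells (11405 and 11428) and the stefin-bearing cells. The intervals of neighbouring dendritic cell-like and shallow microglia-like levels overlapped in the wild-type library, 22610.5 to 23014 and 22637 to 23372 CPM, so their order there is within counting error. Of the 6 clusters above them, the ependymal or choroid plexus-like one was first in both libraries and the other 5 changed places.

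**Figure D1:**
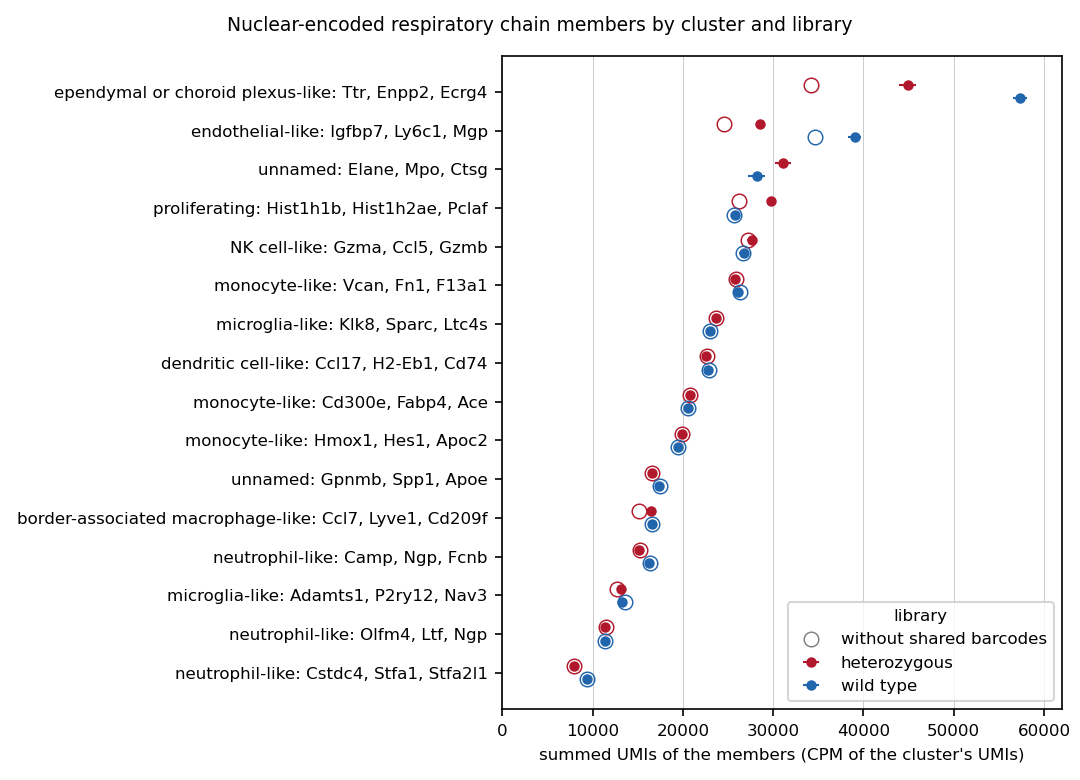
Summed UMIs of the 85 members (x axis, CPM of the cluster's UMIs) in the 16 clusters with at least 20 barcodes in each library, heterozygous above wild type. Filled points carry 95% counting intervals, and open circles leave out barcodes listed in both libraries where 10 or more remain; the libraries lie furthest apart in the endothelial-like (28516 and 39031 CPM) and ependymal or choroid plexus-like (44914 and 57342 CPM) clusters, and the stefin-bearing cluster at the bottom (7957 and 9356 CPM) differs by more than its counting intervals.

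Single cells of the same class spread widely around these sums. The members took a median of 1.797% of a cell's UMIs in heterozygous and 1.97% in wild-type microglia-like cells, with quartiles of 1.21 to 2.36% and 1.32 to 2.42%. The medians were 2.12% and 2.13% in monocyte-like and 1.26% and 1.35% in neutrophil-like cells. When each cell was thinned to 2000 UMIs, the median number of different members seen was 25.5 and 26 in microglia-like, 29 and 30 in monocyte-like and 20 and 20 in neutrophil-like cells. It was 14 and 14 in the stefin-bearing neutrophil-like cells and 44 and 47 in the ependymal or choroid plexus-like cells. Thinning left out 41 and 82 shallower microglia-like, 36 and 77 monocyte-like and 27 and 34 neutrophil-like cells. The unthinned medians were 41 and 39, 55 and 52, and 59 and 58.5 members; neutrophil-like cells were deeper, with medians of 15986 and 13364 UMIs and microglia-like cells 4008 and 3722.

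Within complex I the members with the most UMIs were Ndufa4 (16914 UMIs), a small protein first named for complex I and since placed in complex IV, and the accessory subunits Ndufa13 (11858), Ndufa3 (11500) and Ndufa2 (10469). Complex II had 5598 UMIs of the iron-sulfur subunit Sdhb, 2768 and 1628 of the membrane anchors Sdhd and Sdhc and 2393 of the flavoprotein Sdha. Complex III was led by the hinge protein Uqcrh (19274), Uqcrb (12939), Uqcrq (12025) and Uqcr10 (9632), all small subunits. Complex IV was led by Cox4i1 (30863), which encodes the regulatory subunit that binds ATP, Cox8a (30804), Cox7c (26576) and Cox6c (23033). Complex V was led by Atp5e (33132), the epsilon subunit of its catalytic head, Atp5l (22748), a membrane subunit, Atp5g2 (18358) and Atp5h (16136), a subunit of the stalk. These are UMIs of a 3′ assay and are no measure of protein or of the ratio of subunits. For 12 members (Cox5b, Ndufs3, Ndufs5, Atp5l, Uqcr11, Atp5h, Uqcrb, Cox7c, Cox6c, Atp5g2, Atp5md and Ndufb11) another annotated gene holds a near-identical 3′ end, so their counts are uncertain.

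**Figure D2:**
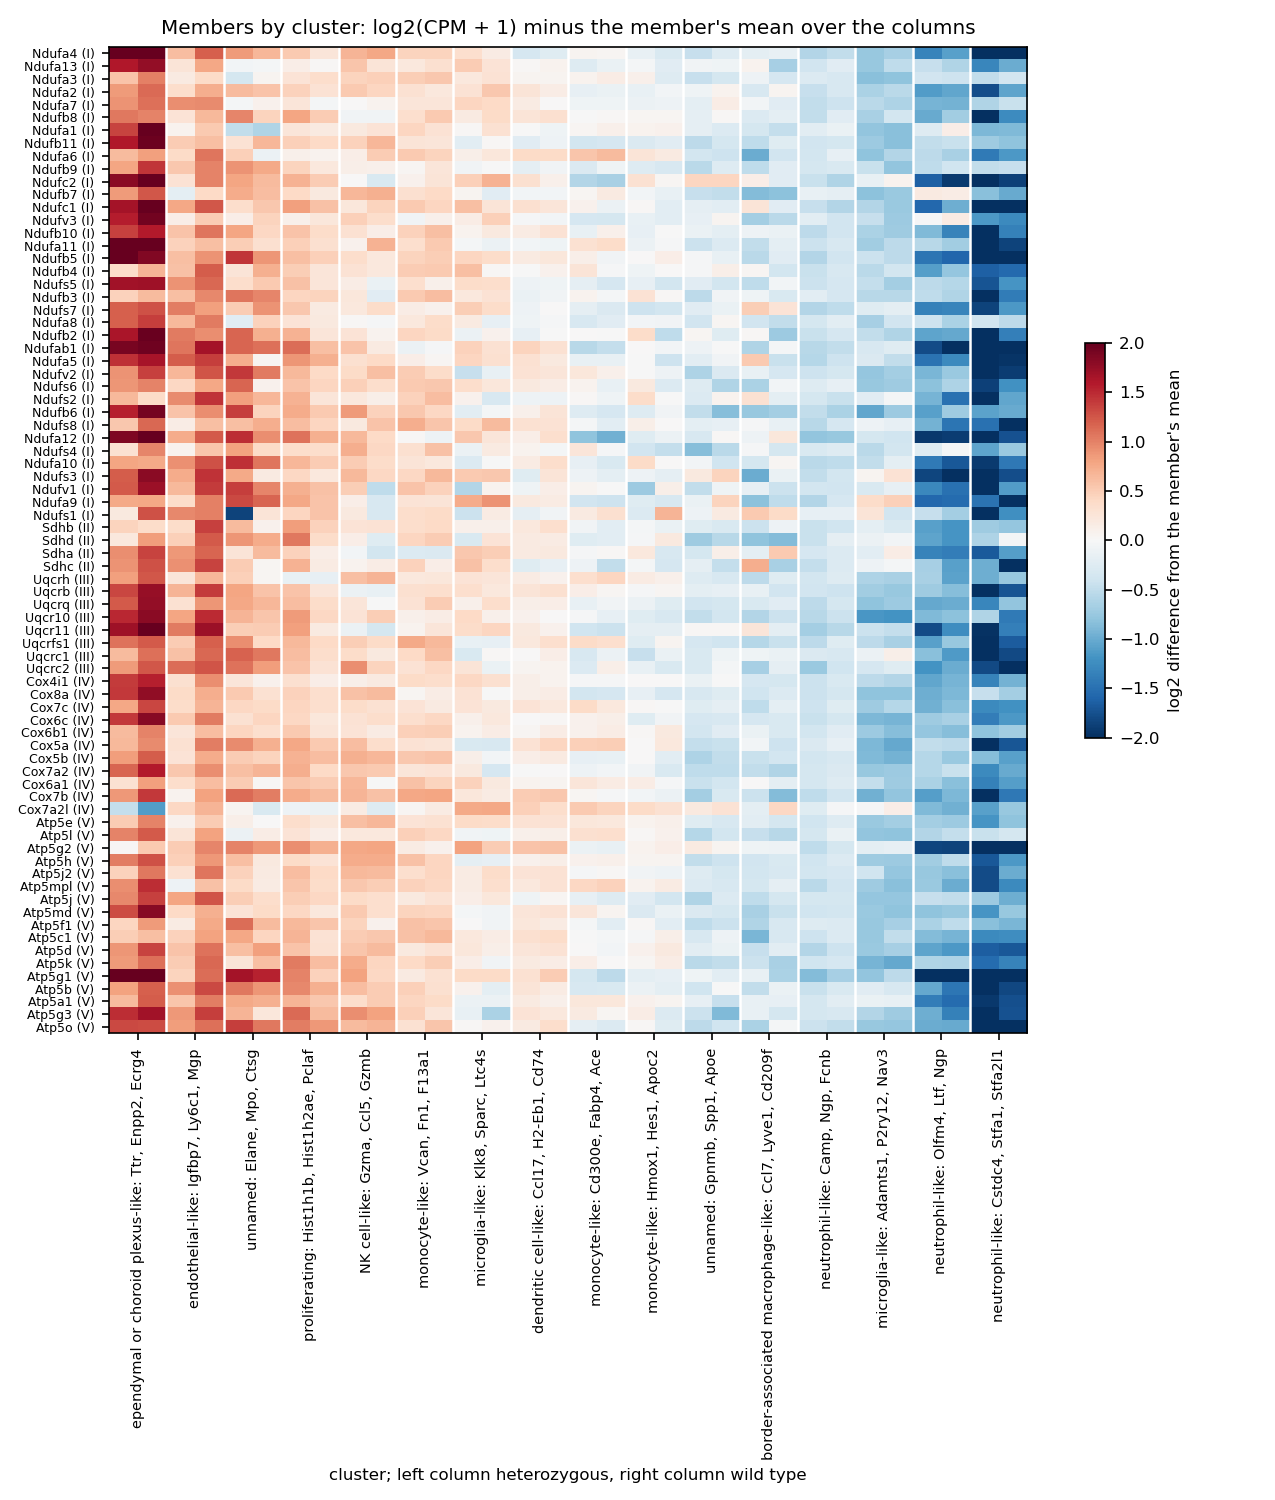
The 77 members with at least 1000 UMIs (rows, by complex) in the 16 clusters (column pairs, heterozygous left of wild type), coloured by log2(CPM + 1) minus the member's own mean, with colours limited to 2 either way. Most rows run from red at the ependymal or choroid plexus-like cells to blue at the stefin-bearing neutrophil-like cells, and Cox7a2l is blue at the left end, where it stood at 164 and 104 CPM.

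Between the libraries, the members stood at nearly the same level in the 4 largest classes. In microglia-like cells they summed to 16071 CPM (15872 to 16272, heterozygous) and 16385 CPM (16209.7 to 16561, wild type), with a log2 ratio of -0.03 (-0.05 to -0.00). In monocyte-like cells the sums were 22339.9 and 22290.4 CPM, a log2 ratio of 0.00 (-0.01 to 0.02), and in dendritic cell-like cells 22606 and 22812 CPM, one of -0.01 (-0.03 to 0.01). In neutrophil-like cells the sums were 14200 and 15338 CPM, a log2 ratio of -0.11 (-0.12 to -0.10), and their stefin-bearing cluster alone had one of -0.23 (-0.30 to -0.17). The median over the 9492 genes with enough UMIs in that class was also -0.11, and under TMM scaling the members' log2 ratio became 0.00, so the members of the whole class stood no lower than the typical gene there. With each library clustered alone, the log2 ratio in microglia-like cells was -0.30.

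No member with at least 50 UMIs passed 1.5-fold (a log2 ratio of 0.58 either way) in these classes. The count was 0 of 77 members in microglia-like cells, where 5.99% of 6807 genes did, 0 of 78 in monocyte-like cells (5.12% of 7964 genes), 0 of 78 in neutrophil-like cells (6.54%) and 0 of 78 in dendritic cell-like cells (9.61%). In microglia-like cells the members ran from Ndufa10 (56.6 and 70.0 CPM, log2 ratio -0.31, -0.71 to 0.09) to Ndufs1 (27.7 and 22.5 CPM, log2 ratio 0.30, -0.34 to 0.93). Both are complex I subunits with intervals that include 0. In monocyte-like cells the highest was Sdhc, at 49.3 and 38.2 CPM (log2 ratio 0.37, 0.04 to 0.69), and in neutrophil-like cells the lowest was Uqcrc2, a core subunit of complex III, at 49.8 and 62.9 CPM (-0.34, -0.54 to -0.13). The interval left out 0 for 4 of 77 members in microglia-like, 11 of 78 in monocyte-like and 36 of 78 in neutrophil-like cells. These counts have no share of all genes beside them, so they do not set the members apart. In neutrophil-like cells the median member and the median gene both stood at -0.11. By complex, the summed log2 ratios in microglia-like cells were -0.07 for complex I, -0.07 for II, -0.04 for III, 0.01 for IV and -0.02 for V. The 13 mitochondrially encoded subunits had a log2 ratio of 0.02 there (28524 and 28200 CPM).

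**Figure D3:**
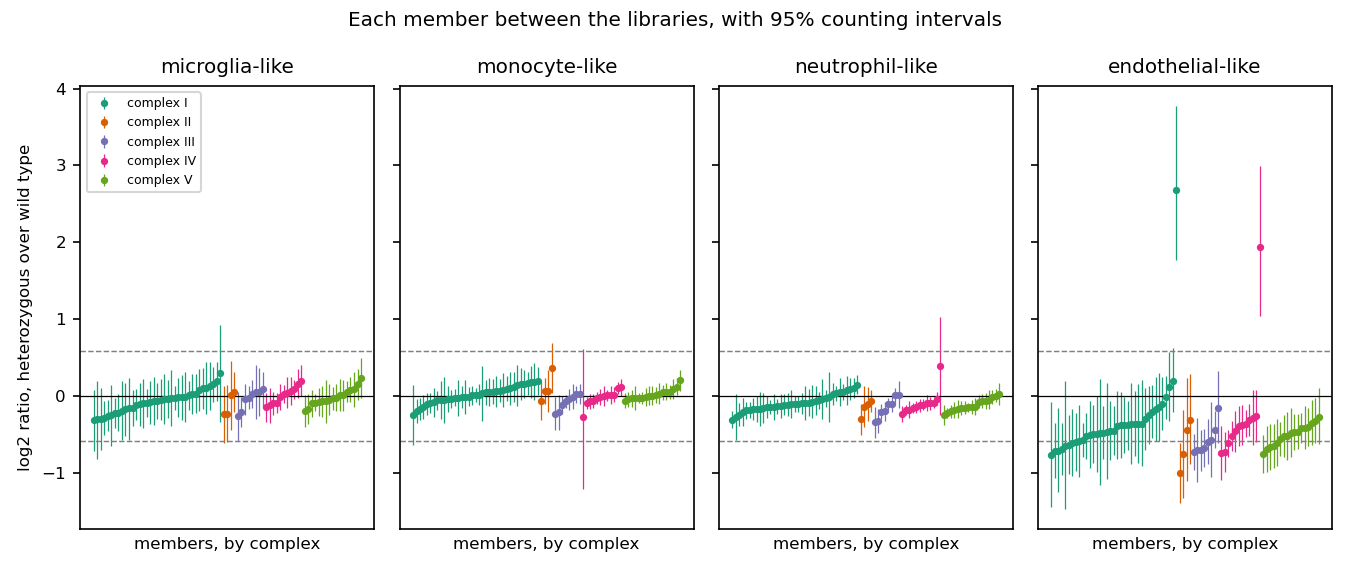
Log2 ratio of each member with at least 50 UMIs, heterozygous over wild type (y axis), in 4 classes, with members sorted within their complex and bars for 95% counting intervals; dashed lines mark 1.5-fold. No microglia-like, monocyte-like or neutrophil-like point lies beyond a dashed line. Among 78 endothelial-like members 24 lie below, against 8.97% of genes, and 2, Ndufa4l2 and Cox4i2, above, against 16%. Without the 2 deepest barcodes of each library the endothelial-like sums were 27321 and 26393 CPM. Under TMM scaling the neutrophil-like sum moves to a log2 ratio of 0.00.

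In 3 smaller classes the libraries stood apart. Endothelial-like cells (89 and 41) had 28516 and 39031 CPM of members, a log2 ratio of -0.45 (-0.49 to -0.42). There 24 of 78 members were at least 1.5-fold lower in the heterozygous library, against 8.97% of 2987 genes, and 2 were higher, against 16% of genes. The lowest was Sdhb, at 197 and 393 CPM (log2 ratio -0.997, -1.38 to -0.61), and the others included Cox4i1 (1060.0 and 1619 CPM), Cox5a (484 and 802 CPM), Atp5j2 (520 and 877 CPM), Uqcrb (556 and 918 CPM) and Ndufc2 (259 and 423 CPM). The 8 genes of the pericyte and smooth muscle list summed to 5528 and 1214 CPM in this class, all 8 higher in the heterozygous library, and their part in the lower members was not tested. These sums rested on few barcodes. The 2 deepest wild-type barcodes held 25.2% of the class's UMIs, with members at 6.85% and 8.79% of their UMIs. Without the 2 deepest barcodes of each library the levels were 27321 and 26393 CPM, and the median cell had 2.40% and 2.41%. Without barcodes listed in both libraries they were 24531 and 34628 CPM.

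Ependymal or choroid plexus-like cells (48 and 36) had 44914 and 57342 CPM, a log2 ratio of -0.35 (-0.39 to -0.32). Of 77 members 8 were at least 1.5-fold lower, against 12.6% of 1184 genes, and 1 higher, against 15.3%. Neither share was above that of all genes. Cox8b was the lowest, at 149 and 406 CPM (-1.45, -2.07 to -0.87), followed by Ndufa1, a complex I subunit, at 605 and 1079 CPM. Ndufs4, Ndufb9, Sdhd, Ndufs8, Ndufs3 and Atp5j2 came next, with log2 ratios of -0.68 to -0.59. The intervals of Ndufs4, Sdhd, Ndufs8 and Ndufs3 include 0. Cox7a2l, a protein that joins complexes III and IV, was the higher one, at 164 and 104 CPM (0.65, -0.08 to 1.37). All 36 wild-type and 36 of the 48 heterozygous barcodes of this class were listed in both libraries, and the 2 deepest wild-type barcodes held 63.2% of its UMIs. Without the 2 deepest barcodes of each library the levels were 46805 and 51759 CPM.

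Proliferating cells (57 and 64) had 29796 and 25770.1 CPM, a log2 ratio of 0.21 (0.19 to 0.23), with Sdhd (153 and 94.3 CPM, 0.70) and the complex III subunit Uqcr11 (471 and 302 CPM, 0.64) past 1.5-fold among 77 members, against 13.8% of 5902 genes in either direction. Without barcodes listed in both libraries the levels were 26208 and 25631 CPM, and without the 2 deepest barcodes of each 26544 and 26144 CPM. In NK cell-like cells (33 and 59) Cox6a1 was higher (145 and 92 UMIs, 0.68) and Ndufa11 lower (57 and 88 UMIs, -0.60) among 71 members, where 16.9% of genes passed. In border-associated macrophage-like cells (23 and 31) 3 of 65 members were higher (Ndufa5 0.98, Ndufb2 0.76 and Ndufa13 0.73) and 4 lower (Ndufa6 -0.62, Cox7a2l -0.60, Atp5c1 and Atp5o -0.59), with 16% of genes past the fold. Those shares, 2 of 71 and 7 of 65, lay below the background of their classes.

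Monocyte-like cells carried more member UMIs than microglia-like cells in both libraries, 22339.9 against 16071 CPM in the heterozygous and 22290.4 against 16385 CPM in the wild-type library. The log2 ratios were 0.48 (0.45 to 0.50) and 0.44 (0.43 to 0.46), whereas the median gene stood at -0.03 and -0.04. In both libraries 17 of 77 members passed 1.5-fold upwards and 0 downwards, against 17% of 7220 genes higher and 18.9% lower. The 17 were the complex IV subunits Cox5a, Cox5b, Cox6b1, Cox6c and Cox7b, the complex V subunits Atp5g3, Atp5k, Atp5l, Atp5h, Atp5mpl and Atp5md, the complex III subunit Uqcrfs1 and the complex I subunits Ndufa3, Ndufa6, Ndufa11, Ndufb7 and Ndufv2. A share of 22.1% higher is near the 17% of all genes, while the absence of lower members differs from the 18.9%. Among genes with at least 200 UMIs, 17 of 75 members were higher and 0 lower, against 23.2% and 15.6% of 3203 genes. The median gene of that set stood at 0.13 and 0.15.

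Cox5a, an early-assembling subunit of complex IV (ENSMUSG00000000088, chromosome 9, 57521274 to 57532426, plus strand, GRCm38), stood at 491 CPM in monocyte-like against 239 CPM in microglia-like cells of the heterozygous library and at 513 against 232 CPM in the wild-type library. Its log2 ratios of 1.04 (0.87 to 1.21) and 1.15 (1.00 to 1.29) were the highest of any member. Ndufa6 stood at 303 against 154 and 310.2 against 179 CPM (0.97 and 0.79), and Uqcrfs1, the Rieske iron-sulfur protein of complex III, at 180.3 against 101 and 181 against 97.0 CPM (0.84 and 0.90). Atp5l stood at 752 against 412 and 761 against 418 CPM (0.87 and 0.86). In all 4 the classes differed by more than the counting error in both libraries.

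At the other end, Ndufa9, an accessory subunit beside the quinone site of complex I (ENSMUSG00000000399, chromosome 6, 126821721 to 126849136, minus strand), stood at 37.9 against 56.6 CPM in the heterozygous and 36.8 against 63.2 CPM in the wild-type library. Its log2 ratios were -0.58 (-0.998 to -0.16) and -0.78 (-1.12 to -0.44). Ndufc2 (-0.16 and -0.49), Ndufa12 (-0.30 and -0.33) and Sdha (-0.09 and -0.40) followed, each with 1 interval that includes 0; in the heterozygous library these 3 lay above 0 against the deep microglia-like cluster alone. By complex, the log2 ratios were 0.39 and 0.32 for complex I, 0.13 and -0.02 for II, 0.45 and 0.47 for III, 0.53 and 0.54 for IV and 0.54 and 0.50 for V. The 13 mitochondrially encoded subunits went the other way, at 23339 against 28524 and 24278 against 28200 CPM (-0.29 and -0.22), with 4 of 13 at least 1.5-fold lower and 0 higher in both libraries, on the same background of 18.9% and 17%.

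The comparison turned on which microglia-like cells it used, a split added after seeing the data. Against the deep cluster alone the log2 ratios were 0.76 and 0.75, with 42 of 77 members higher (16.8% of genes). Against the shallow cluster alone they were -0.09 and -0.05, with Cox5a higher and Ndufa9, Ndufc2, Ndufa12 and Sdha lower among 77 members, while 35.5% of genes were higher and 11.2% lower. Weighting every cell equally gave 0.23 and 0.16, and TMM scaling 0.60 and 0.57. Microglia-like cells held 3842 and 2836 CPM of the neutrophil genes S100a8 and S100a9, and monocyte-like cells 1498 and 1921 CPM. Monocyte-like cells held 2318 and 1491 CPM of C1qa, C1qb and C1qc, against 20560 and 21327 CPM in microglia-like cells. Whether such RNA of other cells had a part in the result was not tested.

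Neutrophil-like cells carried slightly fewer member UMIs, as CPM, than microglia-like cells, 14200 against 16071 CPM and 15338 against 16385 CPM, log2 ratios of -0.18 (-0.20 to -0.16) and -0.10 (-0.11 to -0.08), a direction that turned to 0.36 and 0.28 under TMM scaling. It also depended on which microglia-like cells were used and how cells were weighted. Against the deep cluster alone, a choice made after seeing the data, the log2 ratios were 0.11 and 0.21. There 2 of 78 members were lower, against 36% of genes. With every cell weighted equally the log2 ratios were -0.505 and -0.499, with 25 of 78 members lower, near the 31.5% of genes. The median gene stood at -0.50 and -0.35, so relative to it the members were higher, with medians of their own of -0.21 and -0.14. In both libraries 9 of 78 members were at least 1.5-fold lower and 0 higher, against 30.4% of 8293 genes lower and 10.8% higher; under TMM scaling 1 was lower and 6 were higher, against 993 and 1517 of the 8293 genes (12% and 18.3%), shares below those of all genes in both directions. The 9 were the complex I subunits Ndufa9, Ndufa12, Ndufc2, Ndufab1, Ndufs3, Ndufs7 and Ndufs8 and the c subunit genes Atp5g1 and Atp5g2. S100a8 and S100a9 alone took 191589 and 145475 CPM of the neutrophil-like UMIs.

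Ndufa9 was the lowest in both libraries, at 23.9 against 56.6 and 28.7 against 63.2 CPM, log2 ratios of -1.24 (-1.63 to -0.85) and -1.14 (-1.45 to -0.82). Ndufs3 stood at 41.65 against 78.5 and 46.7 against 88.2 CPM (-0.91 and -0.92), Ndufc2 at 135.5 against 219 and 126 against 261 CPM (-0.70 and -1.05) and Ndufa12 at 44.95 against 85.6 and 47.8 against 79.3 CPM (-0.93 and -0.73). At the other end stood Cox5a, at 302 against 239 and 328 against 232 CPM (0.34 and 0.50), and Ndufb7 (0.40 and 0.37), with Atp5l (0.17 and 0.36) and Ndufa1 (0.27 and 0.21) also above 0. These signs did not hold throughout. Ndufa1 lay below 0 in both libraries with equal weights, against the shallow microglia-like cluster alone and in the stefin-bearing cluster alone, Atp5l in both against the shallow cluster, and Ndufb7 in both and Cox5a in both (-1.47 and -0.953) in the stefin-bearing cluster. Of the 3 genes for the same c subunit, Atp5g1 (-0.70 and -0.65) and Atp5g2 (-0.86 and -0.60) were lower, and Atp5g3 stood at -0.05 (-0.26 to 0.16) and 0.23 (0.04 to 0.43). Only the part of the precursor that steers it into mitochondria differs between these 3 genes.

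By complex, neutrophil-like over microglia-like log2 ratios were -0.22 and -0.20 for complex I, -0.48 and -0.41 for II, -0.23 and -0.14 for III, -0.11 and 0.03 for IV and -0.17 and -0.06 for V. The mitochondrially encoded subunits stood further down, at 15669 against 28524 and 17286 against 28200 CPM (-0.86 and -0.71), with 9 of 13 lower in both libraries, against 30.4% of all genes. The summed tricarboxylic acid cycle enzymes stood at -0.39 and -0.17 (0 of 13 higher and 3 lower), and glycolysis genes at 0.40 and 0.47, with 9 of 18 higher and 3 lower. Mitochondrial ribosomal proteins counted 1 higher and 15 lower of 75, and assembly factors 0 higher and 9 lower of 32, shares lower that were no larger than the 30.4% of all genes (10.8% were higher). In monocyte-like over microglia-like cells glycolysis genes stood at 0.27 and 0.34, with 9 of 17 higher and 3 lower, against 17% and 18.9% of genes. Member UMIs per mitochondrially encoded UMI were 0.563 and 0.581 in microglia-like, 0.957 and 0.918 in monocyte-like, 0.906 and 0.887 in neutrophil-like and 1.52 and 1.46 in NK cell-like cells. Neutrophil-like cells also held 5645 and 5409 CPM of the C1q genes, and its part in these values was not tested.

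**Figure D4:**
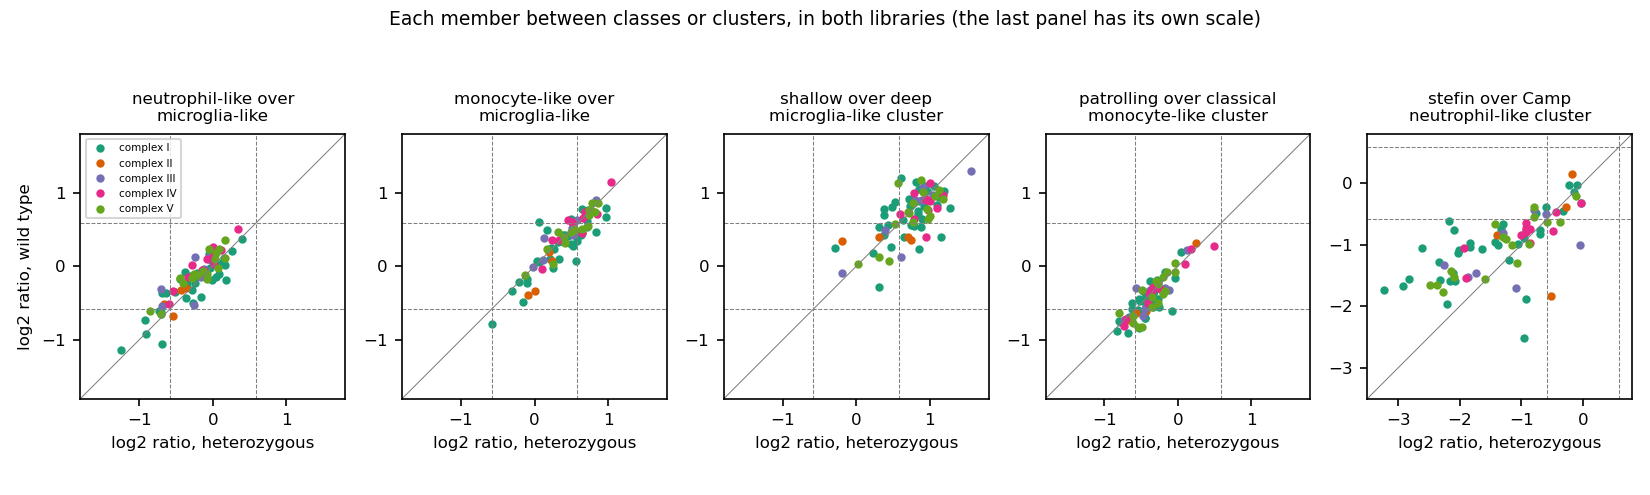
Log2 ratio of each member with at least 50 UMIs between classes or clusters, heterozygous (x axis) against wild type (y axis), coloured by complex, with dashed lines at 1.5-fold and the line of equality; the last panel has its own scale. Points lie above 0 in both libraries for most members of monocyte-like over microglia-like (0.48 and 0.44 summed) and of shallow over deep microglia-like cells (0.85 and 0.80). They lie below for the other 3 panels. Of these, neutrophil-like over microglia-like turns to 0.36 and 0.28 summed under TMM scaling and to 0.11 and 0.21 against deep microglia-like cells alone. Stefin-bearing over Camp-bearing cells also depend on scaling. There 56 of 77 members are at least 1.5-fold lower in both libraries, but 15 lower and 5 higher under TMM scaling.

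Microglia-like cells formed a deep cluster led by Adamts1, P2ry12 and Nav3 (90 and 121 cells, medians of 9186.5 and 8414 UMIs) and a shallow one led by Klk8, Sparc and Ltc4s (113 and 188 cells, 2847 and 2626.5 UMIs). Per UMI the shallow cells held more members, 23726 against 13180.0 and 23002 against 13253 CPM, log2 ratios of 0.85 (0.81 to 0.88) and 0.80 (0.76 to 0.83), whereas the median gene stood at -0.40 and -0.39. In both libraries 46 of 76 members passed the fold upwards and 0 downwards, against 9.31% of 4242 genes higher and 35.3% lower. The background depended on abundance. Among genes with at least 200 UMIs the median gene stood at 0.06 and 0.06. Of the members in that set 40 of 52 were higher, against 22.7% of 1130 genes, and 0 lower, against 28%. Uqcr10, a small subunit of complex III, had the highest log2 ratio in both libraries, with 357 against 120.5 and 291 against 118 CPM (1.57 and 1.30), and Ndufc1 (1.19 and 1.02) and Atp5e (1.12 and 1.04) also passed 2-fold. Uqcrc1, a core subunit of complex III, at 79.8 against 91.3 and 101 against 107.5 CPM (-0.19 and -0.10), and the catalytic-head subunit Atp5a1, at 221 against 217 and 219.5 against 215 CPM (0.02 and 0.03), had intervals that include 0.

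All 5 complexes stood higher per UMI in the shallow cells, from 0.37 and 0.38 for complex II to 0.95 and 0.85 for complex IV. So did the mitochondrially encoded subunits (0.94 and 0.71) and the cytosolic ribosomal protein genes, with 217816 against 115306 and 220094 against 127152 CPM. Tricarboxylic acid cycle enzymes did not, at 0.01 and -0.09 with intervals that include 0. The ribosomal list was taken by symbol, so it also held kinase genes such as Rps6ka1 and pseudogenes such as Rpl10-ps3. The depth of the cells moved with the difference in members between shallow and deep cells, and its part was not tested. Thinned to 2000 UMIs, shallow cells showed 30 and 30 members and deep cells 18 and 20. The unnamed cluster led by Gpnmb, Spp1 and Apoe (154 and 47 cells) stood 0.33 and 0.39 above the deep cluster. Of 76 members only Uqcr10 was at least 1.5-fold higher in both libraries (192 against 120.5 and 209.9 against 118 CPM). That share, 1.32%, was below the 2.81% of all genes.

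Among monocyte-like cells, the patrolling cluster (180 and 412 cells) held fewer member UMIs, as CPM, than the classical cluster led by Vcan (84 and 140 cells), 20788 against 25782 and 20541 against 26110 CPM, log2 ratios of -0.31 (-0.34 to -0.29) and -0.35 (-0.36 to -0.33). In both libraries 12 of 77 members were lower and 0 higher, against 10.3% of 4991 genes lower and 14.2% higher. Ndufa12 and Ndufc2 stood lowest, Ndufa12 with 50.6 against 90.2 and 45.2 against 83.2 CPM (-0.83 and -0.88) and Ndufc2 with 141 against 225 and 136 against 254 CPM (-0.68 and -0.90). The other 10 were Ndufa9, Ndufb6, Ndufs8, Sdhd, Uqcrc1, Cox5b, Cox7b, Atp5b, Atp5c1 and Atp5f1. Cox7a2l went the other way, with 326 against 233 and 309.9 against 255 CPM (0.48 and 0.28). Mitochondrially encoded subunits stood at 0.00 and 0.03, and glycolysis genes at -0.40 and -0.38.

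Among neutrophil-like cells, the stefin-bearing cluster held 7957 against 15149 CPM of the Camp-bearing cluster in the heterozygous and 9356 against 16222 CPM in the wild-type library. Camp marks immature neutrophils that still make granule proteins. The log2 ratios were -0.93 (-0.98 to -0.87) and -0.79 (-0.83 to -0.75), and the median gene stood at -1.23 and -1.06. In both libraries 56 of 77 members (72.7%) were lower and 0 higher, against 58.2% and 5.52% of 7215 genes. Among genes with at least 200 UMIs, 53 of 73 members were lower, against 51.9% of genes. The median gene of that set stood at -0.90 and -0.79. Under TMM scaling 15 members were lower and 5 higher, against 26.4% and 17% of genes, no larger shares than those of all genes. Ndufb5, a complex I subunit, was the lowest in the heterozygous library, with 11.2 against 105 and 36.4 against 121.5 CPM on 4 and 21 UMIs in the stefin-bearing cells (-3.23, -5.11 to -1.87, and -1.74, -2.44 to -1.12). Sdhd (-0.17 and 0.14), Ndufa7 (-0.10 and -0.03), Ndufa3 (-0.22 and -0.04) and Ndufb9 (-0.15 and -0.15) had intervals that include 0 in both libraries. Atp5g2 (-2.37 and -1.66) and Cox5a (-1.89 and -1.55) stood low. Cytosolic ribosomal protein genes stood at -1.79 and -1.34 and glycolysis genes at 0.64 and 0.54, with 4 of 18 higher and 1 lower. Against the Olfm4-bearing cluster 18 of 64 members were lower in the stefin-bearing cells (13.1% of 2004 genes), and in the Olfm4-bearing over the Camp-bearing cluster 22 of 77 were lower (54.1% of 7358 genes).

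Of 6 further classes set against microglia-like cells, 5 stood above them in both libraries, from 0.49 and 0.48 on the log2 scale in dendritic cell-like to 1.48 and 1.81 in ependymal or choroid plexus-like cells, and the border-associated macrophage-like class had intervals that include 0. Dendritic cell-like cells had 20 of 77 members at least 1.5-fold higher in both libraries and 0 lower (10.4% of 6083 genes higher and 22.7% lower), with Cox5a at 482 against 239 and 529 against 232 CPM (1.01 and 1.19). The count was 37 of 77 in NK cell-like cells (17.3% of genes), 48 of 77 in proliferating cells (17.5%) and 60 of 77 in endothelial-like cells (16.3%). Border-associated macrophage-like cells had 0 of 77 higher (6.46%) and 2 lower, Ndufa9 and Sdhd (10.5%). In ependymal or choroid plexus-like cells 67 of 76 members were higher and 1 lower, against 11% and 53.2% of 4606 genes. There Ndufa11, a membrane subunit of complex I, stood at 893 against 114 and 980.4 against 122 CPM (2.97 and 3.001), Atp5g1 at 1369 against 210.4 and 1984 against 240.5 CPM (2.70 and 3.04) and Ndufa4 at 2207 against 360.2 and 2622 against 366 CPM (2.61 and 2.84). The lower one was Cox7a2l, at 164 against 268 and 104 against 296 CPM (-0.71 and -1.50). Barcodes listed in both libraries made up most of that class, as given above.

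Members known as tissue-restricted forms had their highest levels in small classes: 2 in endothelial-like and 3 in ependymal or choroid plexus-like cells. Cox4i2, the oxygen-responsive form of Cox4i1 (ENSMUSG00000009876, chromosome 2, 152754173 to 152765037, plus strand), had 102 heterozygous and 11 wild-type UMIs in endothelial-like cells, 158 and 41.2 CPM (log2 ratio 1.94, 1.04 to 2.99). They lay in 17 of 89 cells (19.1%, 11.5 to 28.8) and 4 of 41 cells (9.76%, 2.72 to 23.1). Ndufa4l2, the hypoxia-induced relative of Ndufa4 (ENSMUSG00000040280, chromosome 10, 127514967 to 127517154, plus strand), had 155 and 10 UMIs there, 241 and 37.5 CPM (2.68, 1.76 to 3.77), in 27 of 89 (30.3%, 21.03 to 41.0) and 5 of 41 cells (12.2%, 4.08 to 26.2). In microglia-like cells, of about the same median depth (4008 and 3722, against 3879 and 3691 UMIs in endothelial-like cells), Cox4i2 was found in 2 of 203 and 1 of 309 and Ndufa4l2 in 1 of 203 and 0 of 309 cells. That is the share in a class not expected to make them, and free RNA itself was not estimated.

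Both genes are known from pericytes, the contractile cells on brain capillaries, and pericyte markers moved with them. All 8 genes of the pericyte and smooth muscle list were higher in the heterozygous endothelial-like cells and summed to 5528 and 1214 CPM, with Rgs5 at 1019.7 and 311 CPM and Acta2 at 1107 and 7.50 CPM. Of 12 endothelial markers 11 were higher there, summing to 22136 and 15268 CPM. Their part in the 2 ratios was not tested.

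Cox8b (ENSMUSG00000025488, chromosome 7, 140898945 to 140900446, minus strand) had 30 and 140 UMIs in ependymal or choroid plexus-like cells, in 13 of 48 and 11 of 36 cells, and none in microglia-like, monocyte-like or neutrophil-like cells; 0 of 203 and 0 of 309 microglia-like cells allow shares of cells with a UMI of up to 1.801% and 1.19% by the exact interval, which is no limit on cells expressing the gene at their median depths of 4008 and 3722 UMIs. Cox6b2, a testis form of Cox6b1, stood at 139 and 168 CPM in the same class and at 9.65 and 6.37 CPM in microglia-like cells. Cox7a1, the muscle form of Cox7a2, stood at 24.8 and 58.0 CPM on 5 and 20 UMIs. All 36 wild-type and 36 of the 48 heterozygous barcodes of the ependymal or choroid plexus-like class were listed in both libraries. The 2 deepest wild-type barcodes held 63.2% of its wild-type UMIs. The libraries are therefore not separate sightings of Cox8b, Cox6b2 and Cox7a1 there. Cox6a2, the heart and muscle form of Cox6a1, had its UMIs elsewhere: 20 and 21 in microglia-like cells, in 12 of 203 and 17 of 309 cells, 27 in 17 of 154 heterozygous cells of the Gpnmb-led cluster, and 11 and 16 in neutrophil-like cells, which were deeper (1.73 and 1.79 CPM, against 12.9 and 10.3 CPM in microglia-like cells).

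**Figure D5:**
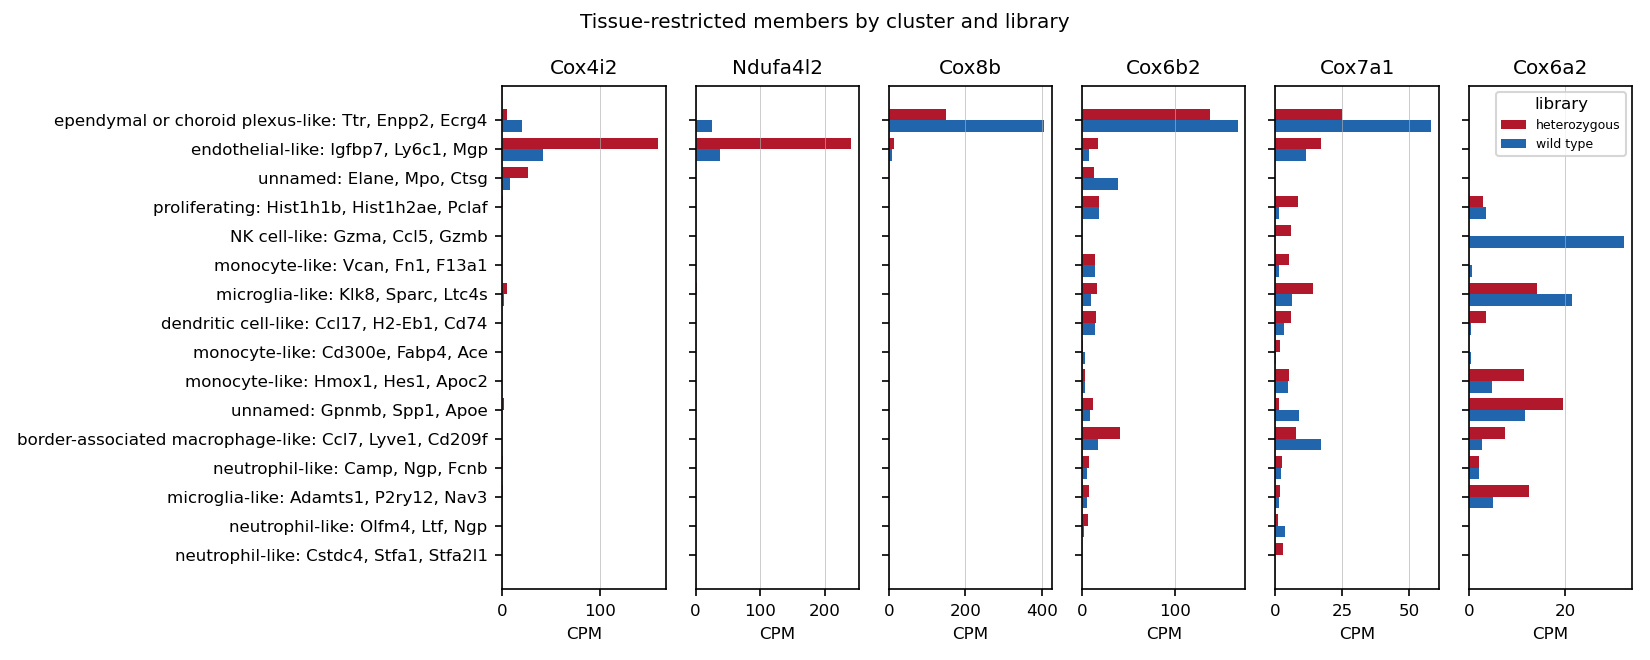
CPM of 6 tissue-restricted members (panels, each with its own x axis starting at 0) in 16 clusters, heterozygous above wild type. Cox4i2 and Ndufa4l2 peak in the endothelial-like cluster (158 and 41.2, and 241 and 37.5 CPM). Cox8b, Cox6b2 and Cox7a1 peak in the ependymal or choroid plexus-like cluster, where most barcodes were listed in both libraries. Cox6a2 is spread over microglia-like, Gpnmb-led and NK cell-like clusters at low levels.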

How the data were processed

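Single-cell 3′ RNA libraries were deposited as raw UMI counts per gene and barcode. Cell Ranger 4.0 and the build mm10 are given per the submitters' processing notes, while the deposited matrix header names version 5.0.0. The authors' count matrices were already limited to called barcodes.

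Barcodes with at least 500 genes and at most 10% mitochondrially encoded UMIs were kept. Counts were scaled to 10000 per cell, and 2000 variable genes, 30 components and 15 neighbours gave Leiden clusters at resolution 0.5 (scanpy 1.11.5). The members, mitochondrially encoded genes, Cx3cr1, Xist and Y-linked genes were kept out of the variable genes. A cluster took a name from 3 or more marker genes. No doublet caller was run. As an alternative, mixed barcodes were left out: neutrophil-like ones with more than 1% C1q UMIs, and others with more than 1% S100a8 and S100a9 UMIs. Mixtures of other kinds were not removed. UMIs were summed per class and library and given as CPM. Members with at least 50 UMIs over the 2 sums were counted when past 1.5-fold. Intervals are exact and cover counting error only: Poisson for levels, conditional binomial for ratios, Clopper-Pearson for shares. With 1 library per group no p-value was computed. Near-identical 3′ ends were those with a BLAST 2.17.0 match of at least 98% over 90 bases of the last 300. TMM factors came from edgeR 4.0.16.

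The members, gene lists and comparisons were chosen with earlier results of these data known. Genes were named by their place at the ends of a comparison, by crossing 1.5-fold, or as the members with the most UMIs of each complex; alternatives were tried for filters, clustering, scaling, weighting and thresholds.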

Additional observations from a re-analysis of the deposited data

Results flagged for a closer look

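In 3 classes the summed members stood apart between the libraries while the large classes stayed near 0. The log2 ratio of heterozygous over wild type was -0.45 in endothelial-like cells, -0.35 in ependymal or choroid plexus-like cells and 0.21 in proliferating cells. The difference between classes was not tested, since each class has 1 library per genotype. Without the 2 deepest barcodes of each library the levels were 27321 and 26393 CPM in endothelial-like cells, 46805 and 51759 CPM in ependymal or choroid plexus-like cells and 26544 and 26144 CPM in proliferating cells.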

How the results depend on the processing

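No paired analysis was possible because each genotype has 1 library. Values below are log2 ratios of the summed members unless counts are named, and the cause of a move was not tested. Settings that took only the deep or shallow microglia-like, stefin-bearing or Xist-marked cells were chosen after seeing the data.

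Heterozygous over wild type in microglia-like cells (-0.03), the ratio was -0.0673 with no cell filter, -0.30 with each library clustered alone, -0.0738 under TMM scaling, -0.073 with cells weighted equally, -0.055 without shared barcodes, 0.0447 in shallow cells and 0.0213 in Xist-marked cells. In monocyte-like cells (0.00) it was 0.0348 with no filter, 0.0248 with a stricter filter, 0.0503 with each library alone, -0.0412 under TMM scaling and 0.0645 in Xist-marked cells. In neutrophil-like cells (-0.11) it was -0.144 without mitochondrial and ribosomal genes, 0.00294 under TMM scaling, -0.0784 with equal weights, -0.234 in the stefin-bearing cluster and -0.0927 in Xist-marked cells. Xist-marked cells, heterozygous and wild type, numbered 95 and 118 in the microglia-like, 256 and 28 in the monocyte-like and 222 and 147 in the neutrophil-like class. The monocyte-like value therefore rests on few wild-type cells.

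Neutrophil-like over microglia-like, heterozygous (-0.18), it was -0.141 with a stricter filter, -0.0814 at resolution 1.0, 0.104 with the library alone, -0.275 without mitochondrial and ribosomal genes, 0.356 under TMM scaling, -0.505 with equal weights, -0.152 without mixed barcodes, 0.107 against deep and -0.741 against shallow cells and -1.01 for the stefin-bearing cluster. In the wild-type library (-0.10) it was -0.132 with no filter, -0.0576 with a stricter one, 0.0336 at resolution 1.0, -0.182 without mitochondrial and ribosomal genes, 0.28 under TMM scaling, -0.499 with equal weights, -0.144 without shared and -0.0703 without mixed barcodes, 0.211 against deep and -0.585 against shallow cells and -0.808 for the stefin-bearing cluster.

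Monocyte-like over microglia-like, heterozygous (0.48), it was 0.519 with no filter, 0.573 with a stricter one, 0.572 at resolution 1.0, 0.804 with the library alone, 0.531 without mitochondrial and ribosomal genes, 0.605 under TMM scaling, 0.228 with equal weights, 0.761 against deep and -0.0868 against shallow cells. In the wild-type library (0.44) it was 0.417, 0.511, 0.567, 0.476 without mitochondrial and ribosomal genes, 0.572 under TMM scaling, 0.164 with equal weights, 0.392 without shared barcodes, 0.75 against deep and -0.0454 against shallow cells.

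Of 0 microglia-like members past 1.5-fold between libraries, 1 passed with each library alone (Uqcr10, lower), 2 at a minimum of 10 UMIs (Cox6b2 and Cox7a1, higher), 1 in deep and 1 in Xist-marked cells (Ndufs1, higher) and 1 in shallow cells (Sdhd, lower). The 9 neutrophil-like over microglia-like calls, all lower, became 25 with equal weights (31.5% of genes lower) and 33 against shallow cells (18.4%). They became 55 of 76 for the stefin-bearing cluster (65.5%), 5 with a stricter filter (30.4%) and 3 with the library alone (34.5%). At 2-fold 1 remained (12.8%) and against deep cells 2 (36%). The lower fold threshold gave 18 lower and 2 higher, against 46.3% and 14% of genes. The 17 monocyte-like calls, all higher, became 26 with a stricter filter (14.5% of genes higher) and 30 at resolution 1.0 (15.9%). They became 32 under TMM scaling (20.8%), 42 against deep cells (16.8%) and 1 at 2-fold (9.63%). The lower fold threshold gave 45 higher and 1 lower, against 25.9% and 27.7% of genes. Equal weights gave 3 higher and 1 lower (21.4% and 16.8%), and shallow cells 1 higher and 4 lower (35.5% and 11.2%). The 46 shallow over deep calls, all higher, became 71 under TMM scaling (25.1% of genes higher) and 5 at 2-fold (1.08%). The 56 stefin-bearing over Camp-bearing calls, all lower, became 20 under TMM scaling. Of these 20, 15 were lower and 5 higher, against 26.4% and 17% of genes. At 2-fold 30 of 77 were lower, a share below the 41.9% of genes. The 12 patrolling over classical calls, all lower, became 47 at the lower fold threshold (20.3% of genes lower) and 0 at 2-fold (4.21%). For members named singly, 451 of 496 values stayed on their side of the threshold, 25 newly passed it in the same direction, 18 no longer did and 2 reversed: Cox5a, neutrophil-like over microglia-like, was -1.47 (heterozygous) and -0.953 (wild type) for the stefin-bearing cluster. The sign changed in 21 of the 496 values, over 11 of 32 results. Besides Cox5a these were Ndufa1, Ndufb7 and Atp5l in neutrophil-like cells, with equal weights, against shallow cells or for the stefin-bearing cluster, and Sdha, Ndufc2 and Ndufa12 in heterozygous monocyte-like cells, against deep cells and, for Sdha, also at resolution 1.0, with the library alone and under TMM scaling.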
